A study of Mus musculus with 2 samples.

Results

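Neurog3-expressing cells of the mouse islet were taken as the barcodes in which at least 2 UMIs (unique molecular identifiers, which count captured RNA molecules) were assigned to Neurog3. They numbered 420 of 12450 kept cells, 298 of 4219 in the control library and 122 of 8231 in the Isl1CKO library. A barcode was kept with at least 1000 UMIs, at least 500 genes and at most 15% mitochondrial UMIs. Each group of Neurog3 cells was set against the cells of its own library that had 0 Neurog3 UMIs and a total between the lowest and highest total of the Neurog3 cells, 3234 cells in control and 7631 in Isl1CKO. Cells with 0 Neurog3 UMIs are called cells without Neurog3, although 0 UMIs does not show that Neurog3 RNA was absent. Since Neurog3 UMIs chose the cells, the Neurog3 level itself is a description. The series profiled sorted islet cells of 1-month-old mice to learn how the loss of Isl1, a LIM-homeodomain factor that islet hormone cells share, alters their identity. Control mice were Neurod1 Cre/+; Isl1f/+, labelled as males, and Isl1CKO mice were Neurod1 Cre/+; Isl1 f/f, labelled as female and male. Both genotypes carried Cre under Neurod1, which is active in endocrine cells, and at least 1 floxed Isl1 allele, and all cells were sorted for the red reporter tdTomato. Cells of 3 animals were pooled for each library, and 1 library was made per genotype. Genotype therefore cannot be told apart from library, and no test between groups was possible. The 95% intervals given here cover counting error only.

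Neurog3 is the basic helix-loop-helix factor that commits pancreatic progenitors to the endocrine fate. It is expressed briefly in the embryo, where it turns on Neurod1, Insm1, Fev and other genes of the endocrine program, and its RNA is scarce in adult islet cells. Islet endocrine cells are told apart by their hormones: glucagon (Gcg) in alpha cells, insulin (Ins1 and Ins2) in beta cells, somatostatin (Sst) in delta cells and pancreatic polypeptide (Ppy) in gamma cells.

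The control library held 48685758 UMIs and the Isl1CKO library 86086781. Kept cells had a median of 9015 UMIs in control and 8137 in Isl1CKO. Only 8 kept barcodes occurred in both libraries, and 1 of them was a control Neurog3 cell. Isl1 was found at 371 CPM (UMIs scaled to a common total) in the Neurog3 cells of control and 337 CPM in those of Isl1CKO. The kit reads the 3′ end, and the labels do not say which part of Isl1 the floxed allele removes, so this level does not check the genotype label. TdTomato was detected in 100% of the Neurog3 cells of both libraries. Transcripts of female cells (Xist) were present in the control library although its label says males: 21.1% (16.6 to 26.2) of its Neurog3 cells carried Xist without transcripts of the Y-linked genes, against 24.8% of its cells without Neurog3.

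Neurog3 cells made up 7.06% (95% interval 6.31 to 7.88) of kept control cells and 1.48% (1.23 to 1.77) of kept Isl1CKO cells. In control, 193 cells had 2 Neurog3 UMIs, 68 had 3, 25 had 4 and 12 had 5 to 8. In Isl1CKO, 86 cells had 2, 23 had 3 and 13 had 4 or 5. Just below the limit of 2 UMIs stood 490 control and 410 Isl1CKO cells with exactly 1 Neurog3 UMI. With each cell thinned to 3000 UMIs, so that depth was equal, the shares were 1.58% (1.22 to 2.02) of 4043 control cells and 0.332% (0.215 to 0.490) of 7519 Isl1CKO cells, after 176 and 712 shallower cells were left out. The share was thus lower in the Isl1CKO library at either depth, with intervals that did not meet. The Neurog3 cells had a median of 8491 UMIs in control, against 9562 in the cells without Neurog3, and 7889 against 8201 in Isl1CKO.

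Free RNA carried some Neurog3. Barcodes with 10 to 100 UMIs, too few for a cell, held Neurog3 at 21.6 CPM in control and 15.05 CPM in Isl1CKO, against 27.9 and 9.05 CPM over the kept cells. Among kept cells of other types, 1 of 21 in control (4.76%, 0.120 to 23.8, median 3753 UMIs) and 7 of 111 in Isl1CKO (6.31%, 2.57 to 12.6, median 6247 UMIs) had 1 Neurog3 UMI, and none had 2. In all kept Isl1CKO cells 6.46% had at least 1 Neurog3 UMI, so single UMIs there stood at the level of the other cell types. For 2 or more UMIs the 0 of 21 and 0 of 111 cells of other types allow shares of up to 16.1% and 3.27%, which include the shares over all kept cells, so no difference from other cell types was detectable. Neurog3 lies on GRCm38 chromosome 10 from 62133090 to 62134763 on the plus strand, inside the gene Fam241b on the minus strand (named 2010107G23Rik in the files), whose annotated exons overlap 273 of the 1674 bases of Neurog3. Whether the counting used strand is not given in the sources used here, and without strand, reads of these genes cannot be told apart. 2010107G23Rik stood at 59.7 CPM in control Neurog3 cells against 32.6 CPM without Neurog3, and at 67.7 against 37.0 CPM in Isl1CKO.

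In control, Neurog3 cells occurred mainly among cells rich in Sst. A cell was assigned a hormone when that hormone took at least 1% of its UMIs, and a cell could have several. Of 1456 Sst cells, 251 (17.2%) were Neurog3 cells and 45.3% had at least 1 Neurog3 UMI. Their summed Neurog3 level was 73.6 CPM. The share was 18.5% of cells with both Sst and Ppy (218 of 1176) and 11.8% of cells with Sst but not Ppy (33 of 280). It was 2.58% of cells with Ppy but not Sst (22 of 853) and 0.186% (0.038 to 0.544) of cells with Gcg and neither Sst nor Ppy (3 of 1610). Those Gcg cells were deeper than the Sst cells, with a median of 9312 UMIs against 7663, yet held 1.53 CPM of Neurog3. A small class also held many: of 109 kept cells in which none of the 4 hormones reached 1%, 14 (12.8%, 7.20 to 20.6) were Neurog3 cells, at 88.4 CPM of Neurog3. Within Sst cells, 20.2% of female (54 of 267) and 17.4% of male cells (107 of 614) were Neurog3 cells.

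In Isl1CKO, 113 of the 122 Neurog3 cells came from the 7112 cells with none of the 4 hormones at 1% (1.59%), and 9 came from the 933 insulin cells (0.965%). None of 172 Gcg cells had a Neurog3 UMI at all, with a median of 13239 UMIs, against 7629.5 in the cells without the 4 hormones. None of 11 Sst cells had 2 Neurog3 UMIs, while 5 of the 11 had 1. In Isl1CKO the share also differed by the sex read from transcripts: 3.38% (2.57 to 4.35) of male cells (57 of 1689) and 0.762% (0.547 to 1.03) of female cells (41 of 5380). In control it was 7.42% of male and 6.48% of female cells. These shares by sex are not at equal depth. In Isl1CKO, male cells had a median of 10903 UMIs and female cells 7841.5. Their summed Neurog3 levels were 13.6 and 6.23 CPM. Since 3 animals were pooled per library, sex and animal cannot be told apart.

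**Figure D1:**
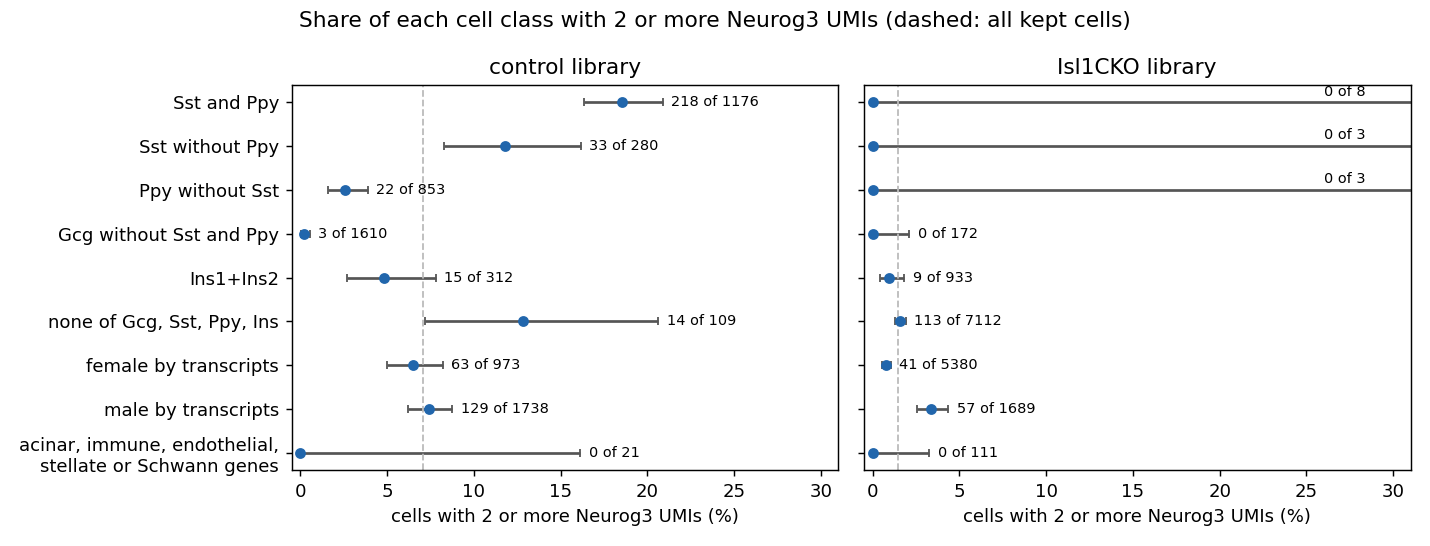
Share of kept cells that had 2 or more Neurog3 UMIs (x axis, percent) in each hormone class and sex (y axis), one panel per library, with exact 95% intervals that cover counting error only and the number of cells beside each point; the dashed line marks all kept cells, and intervals of classes with few cells run past the axis. In control the share is 18.5% in cells with Sst and Ppy and 0.186% in cells with Gcg and neither Sst nor Ppy. In Isl1CKO it is 3.38% in male and 0.762% in female cells, which had medians of 10903 and 7841.5 UMIs.

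The hormones of control Neurog3 cells were Sst and Ppy. Sst reached 1% of UMIs in 84.2% (79.6 to 88.2) of them, against 23.04% of cells without Neurog3, or 27.4% once these were matched in depth. The median Neurog3 cell gave 9.45% of its UMIs to Sst, with quartiles of 4.84% and 12.8%. Ppy reached 1% in 80.5% (75.6 to 84.9) against 41.9% (44.1% matched in depth), with a median share of 3.46% of UMIs. Gcg reached 1% in 17.8% (13.6 to 22.6) against 59.7%, and insulin in 5.03% against 7.73%. Cells with Sst and Ppy together made up 73.2% of Neurog3 cells and 18.3% of cells without Neurog3. Cells with Gcg as the lone hormone of the 4 made up 1.01% and 45.5%. Pyy, peptide YY, reached 1% of UMIs in 91.6% against 52.4%. Hormone RNA was also plentiful in the barcodes with 10 to 100 UMIs, where Gcg stood at 159090 CPM, Ppy at 74635 CPM and Sst at 28238 CPM, and its part in these shares was not tested. The cells with exactly 1 Neurog3 UMI had nearly the same hormones: Sst in 83.3%, Ppy in 75.1%, Gcg in 19.0% and insulin in 5.51%.

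Doublets, barcodes that hold RNA of more than 1 cell, bear on the Gcg share. Scrublet marked 34 (11.4%) of the control Neurog3 cells against 4.92% of cells without Neurog3. Among control Sst cells it marked 11.5% of those with 0 Neurog3 UMIs (86 of 745) and 12.0% of those with 1 (49 of 408). The higher share was thus not particular to Neurog3 cells. Of the 53 Neurog3 cells with Gcg, 30 were marked. Those 53 cells had a median of 18670 UMIs. Without marked cells, Gcg reached 1% in 8.71% of control Neurog3 cells.

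In Isl1CKO, 0 of 122 Neurog3 cells reached 1% for Gcg, Sst or Ppy, which allows a share of up to 2.98%. Insulin reached 1% in 9 of them (7.38%, 3.43 to 13.5), against 11.5% of cells without Neurog3, and 92.6% had none of the 4 hormones, against 86.2%. These hormones were scarce in the whole library: among its cells without Neurog3, Gcg reached 1% in 2.23%, Sst in 0.079% and Ppy in 0.105%. The hormone class that held most control Neurog3 cells was thus nearly missing from the Isl1CKO library, whether or not Neurog3 UMIs were present.

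**Figure D2:**
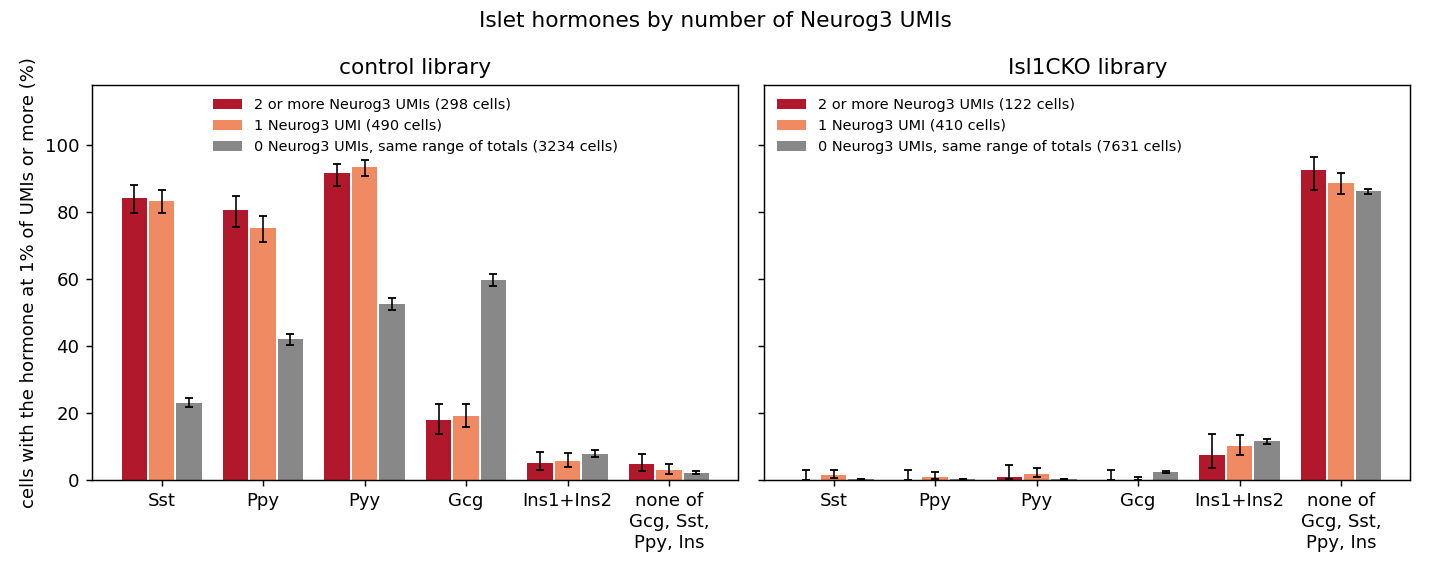
Share of cells (percent) in which each hormone takes at least 1% of the cell's UMIs, for cells with 2 or more Neurog3 UMIs, with 1, and with 0 in the same UMI range, in each library, with exact 95% intervals covering counting error only. In control, Sst stands at 84.2% in Neurog3 cells and 23.04% without Neurog3, and in Isl1CKO no Neurog3 cell reaches 1% for Gcg, Sst or Ppy.

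To compare single genes, UMIs were summed over the Neurog3 cells and over the cells without Neurog3 and scaled with TMM. Genes that reached 10 CPM in either sum counted as measured. A gene is called when its ratio was at least 2-fold in either direction and the counting interval excluded 1. In control, 136 of 7716 measured genes were called higher (1.76%) and 149 lower (1.93%) in Neurog3 cells. With CPM left unscaled, which moved all log2 ratios up by 0.31, the counts were 307 higher and 84 lower. When the totals were taken without hormone genes, a shift of 0.10, they were 269 higher and 171 lower.

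Delta cell genes were higher in control Neurog3 cells: 5 of 6 measured genes were called, with a median log2 ratio of 1.74 against -0.01 over all measured genes. Hhex, the homeobox factor needed for delta cells, stood at 84.8 against 24.9 CPM (log2 ratio 1.77, 1.58 to 1.95) and was detected in 52.0% against 13.3% of cells. Ghsr, the ghrelin receptor, stood at 11.6 against 2.64 CPM (2.16), Ptprz1, a receptor tyrosine phosphatase, at 79.4 against 20.7 CPM (1.94), and Rbp4, a retinol carrier, at 6092 against 3018 CPM (1.01). Sst itself stood at 72132 against 22358 CPM (1.69, 1.68 to 1.70). Sox9, a factor of progenitors and ducts, was at 22.8 against 7.76 CPM (1.56, 1.18 to 1.91), and was the single one of 9 measured progenitor and duct genes to be called. Aldh1a3, a retinaldehyde dehydrogenase listed with beta cell dedifferentiation, was at 10.1 against 2.98 CPM (1.78).

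Alpha cell genes were lower: 9 of 13 measured genes were called lower and 1 higher, with a median of -1.81. The Iroquois factors Irx1 and Irx2 had log2 ratios of -1.87 and -1.81, and Slc7a2, a carrier of cationic amino acids, was at 59.7 against 240.3 CPM (-2.002). Irx1 or Irx2 was detected in 20.5% of Neurog3 cells and 55.8% of the others. The gene called higher was Kctd8, an auxiliary subunit of the GABA-B receptor, at 27.7 against 9.44 CPM (1.56). Of 11 measured beta cell genes, Iapp, amylin, was called higher (1.10), and Slc30a8, the granule zinc transporter (-1.83), Ero1lb, an oxidase of the endoplasmic reticulum (-1.33), and G6pc2, the islet glucose-6-phosphatase (-1.13), lower. With the depth-matched reference, Iapp (0.88) and Rbp4 (0.90) missed the 2-fold limit. Pdx1, a factor of beta and delta cells, had a ratio of 0.77 (0.61 to 0.92) and was detected in 66.4% against 27.8% of cells.

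Of genes that act with Neurog3 in the embryo, none of 19 measured in control was called in either direction, which is close to the share over all genes, and their median was -0.11. With unscaled CPM 2 were called higher, and without marked doublets 1. Insm1, a zinc finger factor of endocrine precursors, was the higher one of the best known members, at 148 against 84.0 CPM (0.82, 0.68 to 0.95), and Neurod1, a direct target of Neurog3, the lower one, at 152 against 228 CPM (-0.58, -0.71 to -0.46). Ffar2, a receptor for short-chain fatty acids, had a ratio of 0.45, Fgl2, a fibrinogen-like protein, 0.35, Pgf, a growth factor of the VEGF family, 0.70, and Fam101a -0.81. None of these 4 genes, listed as markers of the Neurog3 cells, was called in control.

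The highest and lowest ratios in control held genes of these lineages and others. Ppp1r17, a regulator of protein phosphatases, led the higher genes at 77.6 against 11.7 CPM (2.73, 2.51 to 2.96) and was found in 33.2% against 4.92% of cells. Other high ratios were those of Ghsr, Gap43, a growth cone protein, at 153 against 39.3 CPM (1.96), Ptprz1, Ppp1r14c, Bmp3, Tubb3, Hhex, Syt1, Fermt1 and Asic2, the last at 1.72. Lowest were Hhatl and Pdk4, a kinase of pyruvate dehydrogenase, both at -2.61, and other low ratios were those of Tgfb2, Igsf21, Gcg (-2.06), Sstr2, a somatostatin receptor (-2.02), Mfap2, Nxph1, Pou3f4, Slc7a2 and Edn3, the last at -1.95. Of 8 measured immediate early genes 3 were also called lower, Fos (-1.28), Jun (-1.06) and Klf4 (-1.53), but none of the 8 was called with unscaled CPM or among Sst cells only.

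**Figure D3:**
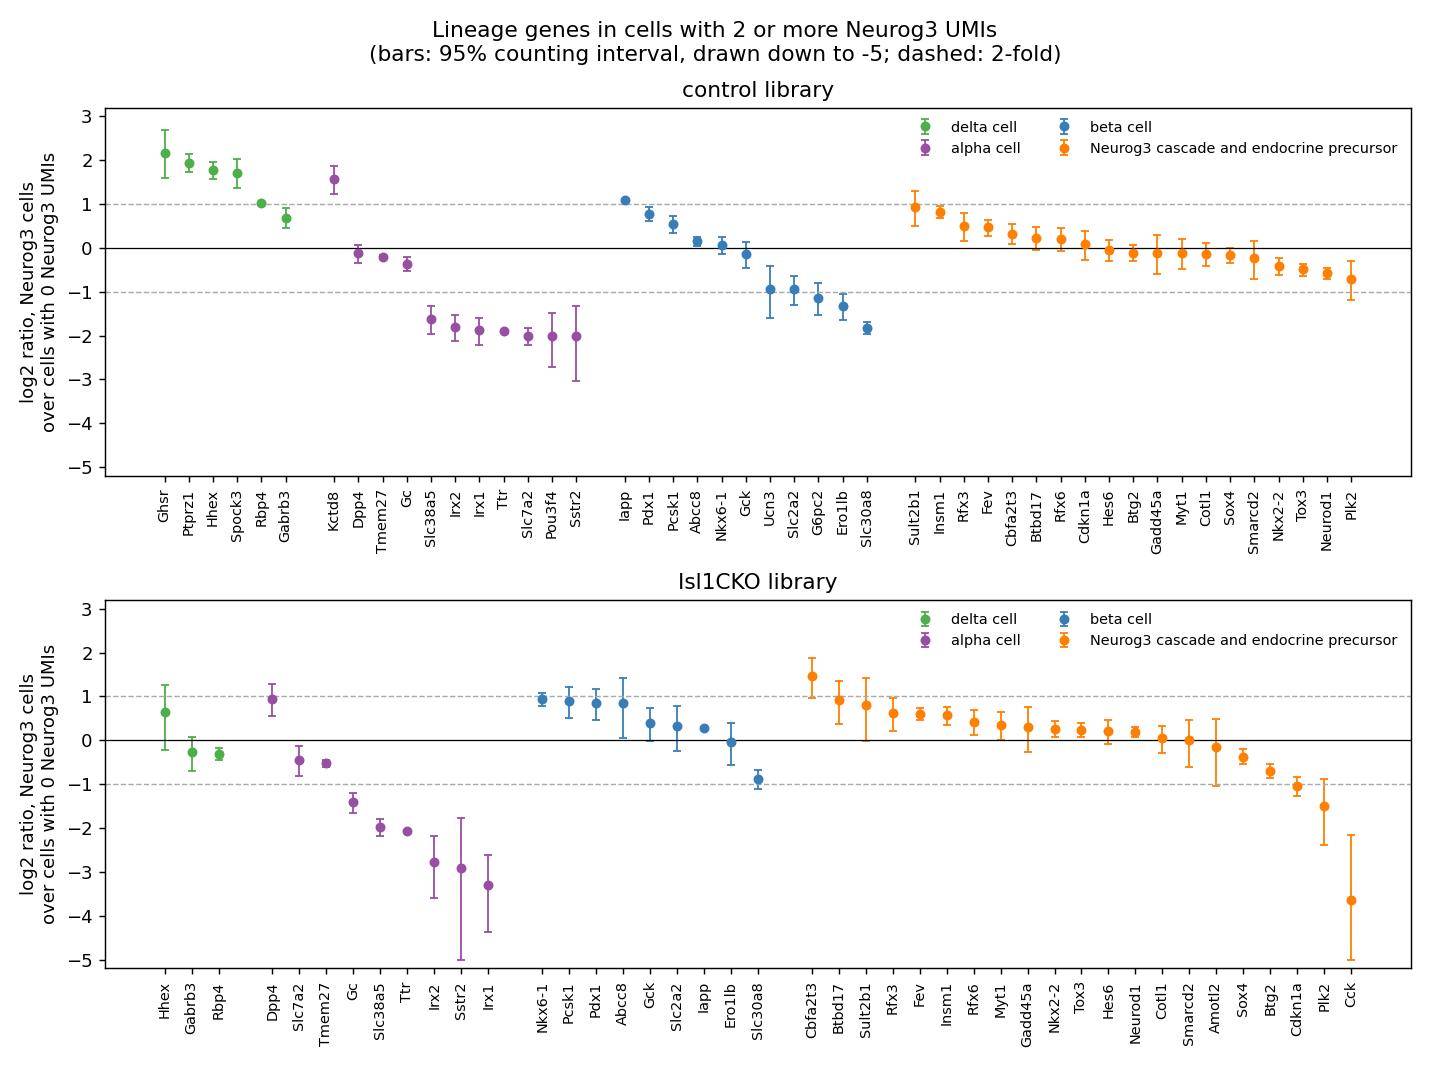
Log2 ratio of the measured delta, alpha, beta and Neurog3 cascade genes reported here, Neurog3 cells over cells of the same library without Neurog3 (y axis), with 95% counting intervals drawn down to -5 and dashed lines at 2-fold. Of the genes drawn, 5 of 6 delta genes lie above and 7 of 11 alpha genes below the 2-fold lines in control, and in Isl1CKO 6 of 9 alpha genes lie below while no delta gene lies above.

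Most of the genes called in control were no longer called once both groups were restricted to Sst cells, a comparison added after the values were seen. It set the 251 Neurog3 cells with Sst against 745 Sst cells without Neurog3. Of 7935 measured genes, 9 were then called higher (0.113%) and 11 lower (0.139%). Of the 136 genes called higher before, 2 were still called and the median log2 ratio went from 1.28 to 0.03. Of the 149 called lower, 3 were still called and the median went from -1.38 to -0.04. Hhex had a ratio of -0.05, Sst -0.14, Rbp4 -0.24, Irx1 0.17, Ttr 0.05, Sox9 -0.02 and Aldh1a3 0.10. Among Sst cells, those with and without Neurog3 UMIs thus differed in few genes at the 2-fold limit. The comparison cannot separate cells that express Neurog3 from cells that do not. All control Sst cells together held 73.6 CPM of Neurog3 at a median of 7663 UMIs. At that level a cell that expresses Neurog3 can show 0 UMIs by sampling. The 9 higher genes were Top2a, Zfp248, Dnm3, Pnoc, Stmn1, Hist1h1b, Epha7, Rfx5 and Fam160b2. Top2a, a topoisomerase of dividing cells, rested on 31 against 12 UMIs. Only 8 of all 298 control Neurog3 cells had a UMI of Mki67 or Top2a, so the 31 UMIs came from at most 8 cells. Pnoc, the nociceptin precursor, was at 40.1 against 15.8 CPM (1.34). The 11 lower genes included Sparc (-1.62), Apoe (-1.15) and Dlk1, a Notch ligand-like protein, at 13.6 against 33.2 CPM (-1.26). Ppp1r17 had a ratio of 0.92, Ffar2 of 0.39, Pgf of 0.32 and Cbfa2t3 of 0.31.

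**Figure D4:**
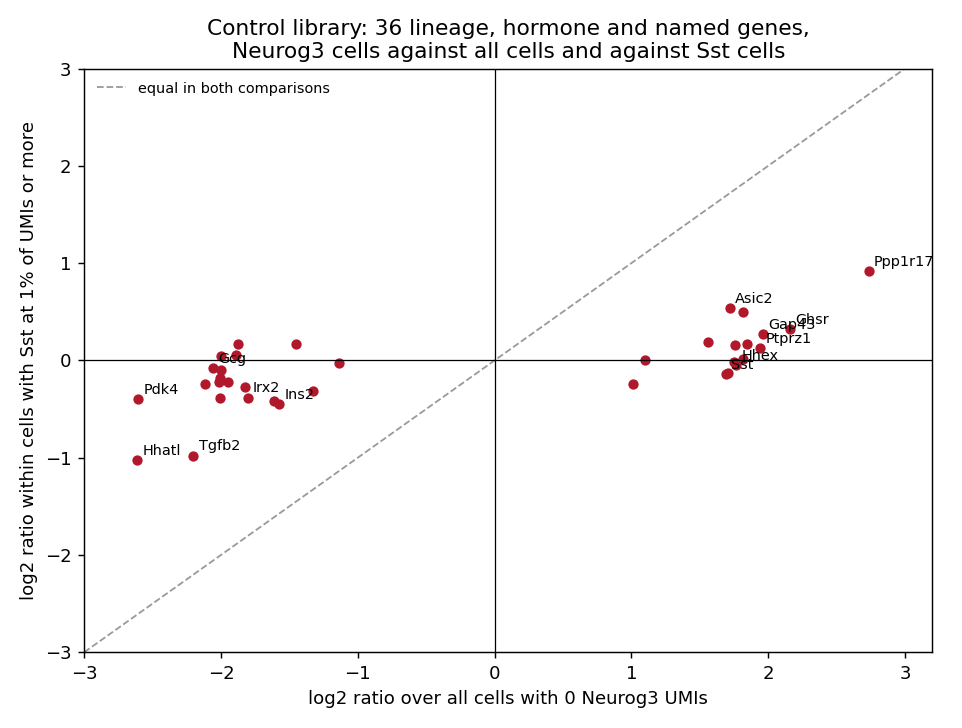
Log2 ratios in control of Neurog3 cells over cells without Neurog3, over all hormone classes (x axis) and among Sst cells only (y axis), for 36 genes reported here, called in the delta, alpha, beta and hormone lists or among the 12 highest and 12 lowest ratios. The dashed line marks equal ratios. Ratios spread from -2.61 to 2.73 on the x axis, while 32 of the 36 lie within 0.5 of 0 on the y axis.

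Levels in this paragraph are unscaled CPM, and the comparison was made after the values were seen. The 14 control Neurog3 cells in which none of the 4 hormones reached 1% differed from control Neurog3 cells as a whole. They had 3487 to 7465 UMIs and 2 to 4 Neurog3 UMIs, and none was marked as a doublet or shared its barcode with the other library. Their Isl1 level was 11.9 CPM, from 1 UMI in 1 cell, against 412 CPM over all control Neurog3 cells. Nkx6-1, a homeobox factor of beta cells and their precursors, stood at 585 against 71.3 CPM and was detected in 13 of the 14. Fev, a factor of endocrine precursors, was at 394 CPM, Ffar2 at 370 against 106 CPM, Fgl2 at 203 against 42.6 CPM, and Chga, the granule protein chromogranin A, at 58094 CPM. Hhex and Ptprz1 were at 0 in them, which allows up to 44.0 CPM by the 95% interval, against 94.3 and 88.3 CPM over all control Neurog3 cells. The 65 control cells without Neurog3 and without the 4 hormones were alike in these genes, with Isl1 at 72.0 CPM, Nkx6-1 at 499 CPM, Fev at 296 CPM, Ffar2 at 321 CPM and Fgl2 at 205 CPM. The 113 Isl1CKO Neurog3 cells without the 4 hormones had Nkx6-1 at 300.5 CPM, Fev at 415 CPM, Ffar2 at 171 CPM, Fgl2 at 177 CPM and Chga at 54581 CPM, but Isl1 at 394 CPM.

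Of 9119 measured genes in Isl1CKO, 150 were called higher (1.64%) and 180 lower (1.97%) in Neurog3 cells. Unscaled CPM, a shift of 0.23, gave 364 higher and 109 lower, and leaving hormone genes out of the totals, a shift of 0.25, gave 388 higher and 107 lower. Ffar2 stood at 163 against 57.7 CPM (1.51, 1.29 to 1.70) and was found in 55.7% against 26.6% of cells. Fgl2 stood at 166 against 49.6 CPM (1.75, 1.54 to 1.94) and was found in 67.2% against 25.0%. Pgf was at 37.7 against 18.7 CPM (1.04, 0.57 to 1.43). Ffar2 and Fgl2 were detected together in 45.9% of Neurog3 cells and 9.70% of the others. Fam101a stood under 10 CPM in both sums and was not measured. The listed markers were chosen for these cells with earlier results known, so their ratios do not support the label. None other than Neurog3 reached 2-fold in control.

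Levels of Ffar2 and Fgl2 were also higher in Isl1CKO cells with more Neurog3 UMIs. In unscaled CPM, Ffar2 stood at 53.3 in cells with 0 Neurog3 UMIs, 106 with 1, 142 with 2, 187 with 3 and 327 with 4 or more. Fgl2 went 45.8, 108, 142, 246 and 274 over the same groups, Pgf 17.2, 36.8, 28.5, 82.1 and 46.7, and the alpha cell factor Irx2 went 91.8, 19.5, 19.8, 0 and 11.7. The last 2 groups held 23 and 13 cells. No Isl1CKO cell with 4 or more Neurog3 UMIs was female by transcripts, and these levels were not split by sex. In control, Ffar2 went from 63.3 to 84.9, 103, 107 and 119, and Hhex from 22.4 to 90.4, 96.0, 98.2 and 82.6, so that most of the step in Hhex lay between 0 and 1 Neurog3 UMI.

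**Figure D5:**
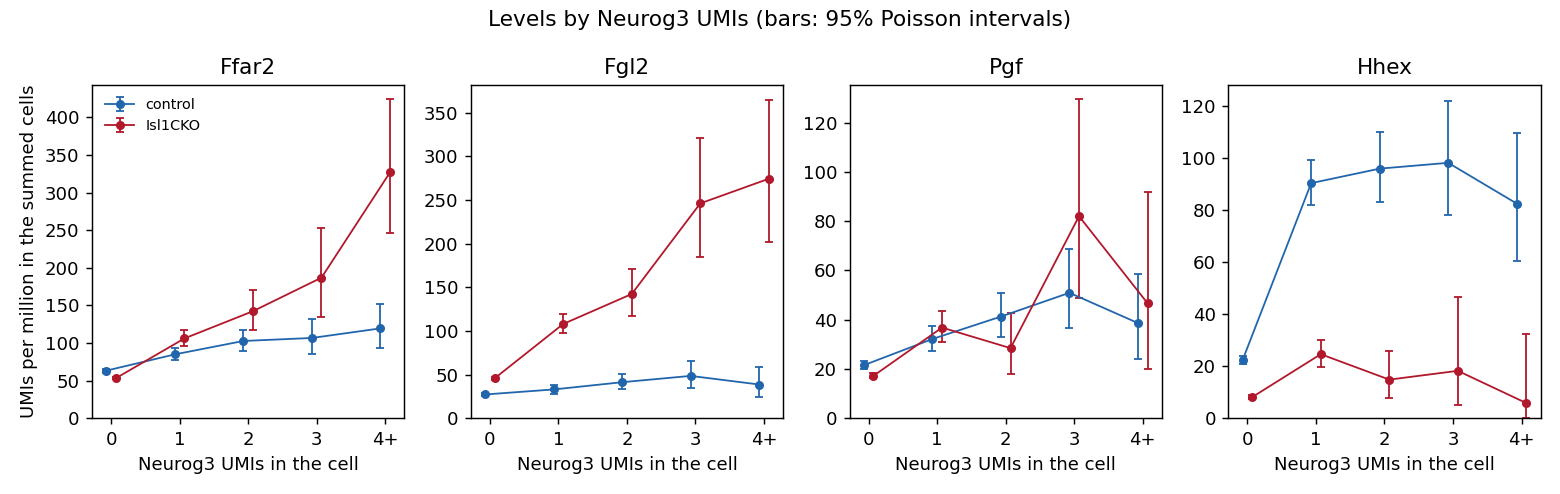
Level of Ffar2, Fgl2, Pgf and Hhex (y axis, unscaled CPM, with 95% Poisson intervals) in cells grouped by their number of Neurog3 UMIs (x axis, 0 to 4 or more), one line per library. Ffar2 in Isl1CKO goes from 53.3 with 0 Neurog3 UMIs to 327 with 4 or more, and Hhex in control from 22.4 to 82.6. The Isl1CKO group with 4 or more held no cell that was female by transcripts.

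Sex moved with these ratios. Of the Isl1CKO Neurog3 cells, 46.7% (37.6 to 56.0) were male and 33.6% (25.3 to 42.7) female by transcripts, against 19.5% and 66.8% of cells without Neurog3. Within male cells the log2 ratios were 0.93 for Ffar2, 1.4998 for Fgl2 and 0.77 for Pgf, and within female cells 1.33, 0.79 and -0.41. Male cells without Neurog3 had more of each gene than female ones, with Ffar2 at 112 against 24.6 CPM and Fgl2 at 70.6 against 31.7 CPM, unscaled. The direction for Ffar2 and Fgl2 was thus the same in both sexes, although Ffar2 missed 2-fold in male and Fgl2 in female cells, and that for Pgf was not.

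Among genes of the Neurog3 cascade in Isl1CKO, 1 of 21 measured was called higher and 3 lower, with a median of 0.24 against -0.02 over all genes. The balance turned with the scaling, to 3 higher and 2 lower both with unscaled CPM and with totals taken without hormone genes. With TMM the higher one was Cbfa2t3, a transcriptional corepressor, at 34.6 against 12.8 CPM (1.47, 0.97 to 1.87). Its ratio was 1.26 within male and 1.74 within female cells. The lower ones were Cdkn1a, an inhibitor of the cell cycle, at 133 against 274 CPM (-1.03), Plk2, a kinase (-1.49), and Cck, cholecystokinin, with 1 UMI in the Neurog3 cells. Fev was at 347 against 229 CPM (0.60, 0.46 to 0.73), Insm1 had a ratio of 0.57 and Neurod1 of 0.19. The beta cell factors also had ratios above 0: Nkx6-1 at 274 against 143 CPM (0.94, 0.78 to 1.09), detected in 82.0% against 56.6% of cells, and Pdx1 at 54.7 against 30.8 CPM (0.85). None of 9 measured beta cell genes was called with TMM, while 4 were called higher and 0 lower both with unscaled CPM and with totals taken without hormone genes.

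Alpha cell genes were lower in Isl1CKO Neurog3 cells too, with 7 of 10 measured genes called lower and a median of -1.69. Irx1 stood at 9.24 against 99.2 CPM (-3.31, -4.38 to -2.62), Irx2 at 13.9 against 99.5 CPM (-2.77), Gc, the vitamin D-binding protein, at 120.1 against 321 CPM (-1.41), and Slc38a5, a glutamine transporter, at 176 against 697 CPM (-1.98). Ttr, the thyroid hormone carrier transthyretin, stood at 11338 against 47868 CPM (-2.08, -2.10 to -2.05). Gcg was at 17.7 against 1409 CPM (-6.25), and the gut hormone secretin, Sct, at 13.9 against 148 CPM (-3.34). Ghrl, ghrelin, was at 4.62 against 137 CPM (-4.67, -6.34 to -3.77). Irx1 or Irx2 was detected in 11.5% of Neurog3 cells and 40.1% of the others. Only 3 delta cell genes were measured and none was called, as the shares of 1.64% and 1.97% over all genes would give for any 3 genes. Hhex was at 13.1 against 8.82 CPM (0.65, -0.22 to 1.26). Within male cells Irx1 and Irx2 had ratios of -3.55 and -3.14, and within female cells -3.80 and -2.01.

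The 12 highest Isl1CKO ratios were led by Kcnk2, a potassium leak channel, at 15.4 against 2.73 CPM (2.56), Cabp7, a calcium-binding protein (2.16), and Pcdh9, a protocadherin, at 32.3 against 7.82 CPM (2.08). They also held Nrcam, a cell adhesion molecule, Syt1, a calcium sensor of vesicle release, at 48.5 against 13.9 CPM (1.82), Zfp804a, Fgl2, Apobec2, Tnfaip8, Tmem229a, Rarres1 and Ly6h (1.59). Within each sex, Pcdh9, Syt1, Zfp804a and Ly6h were called higher in both male and female cells. Tnfaip8 (0.80 male, 0.95 female) and Apobec2 (0.998 male, 1.86 female) were called in neither. The others were called in male cells only, among them Rarres1 (1.52 male, 0.50 female). The 12 lowest were Gcg, Sct, Calca, the calcitonin gene (-3.34), Irx1, Higd1a (-3.14), Sstr2 (-2.90), Irx2, D16Ertd472e, Pdk4 (-2.54), Ptprd, Eef1a2 (-2.48) and AF529169.

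Of the genes called in each library, 21 were called higher in both, which is 15.4% of the 136 control and 14.0% of the 150 Isl1CKO genes. Of the genes measured in both libraries, this is 25.9% of 81 and 31.3% of 67. Called lower in both were 39 genes, 26.2% of 149 and 21.7% of 180, or 34.5% of 113 and 37.9% of 103 measured in both. Of the genes called higher in control, 5 were called lower in Isl1CKO, and of those called lower in control, 1 was called higher in Isl1CKO. The shared higher genes included Syt1, which was at 68.8 against 20.4 CPM in control (1.76), Kcnk2, with a control ratio of 1.52, Pcdh9 (1.26), Ly6h (1.70), Kcnb2, a voltage-gated potassium channel, Scn9a, a sodium channel, Mapt, tau, Nnat, Pcp4 and Wfdc10. Among control Sst cells only, Syt1 had a ratio of 0.16, Kcnk2 of -0.03, Pcdh9 of 0.07 and Ly6h of -0.13, and none of these was called. The shared lower genes included Gcg, Irx1, Irx2, Sstr2, Slc38a5, Ttr and Pdk4, and the acinar genes Prss2, Try4, Try5 and Ctrb1. None of the 21 shared higher and 39 shared lower genes was called in the same comparison among control Sst cells only. The sums without Neurog3 included cells in which acinar genes took up to 51.3% of UMIs in control and 73.8% in Isl1CKO. The sets of Neurog3 cells in both libraries were thus low in alpha cell genes.

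Neurog3 cells of the genotypes were also compared directly, beside the same ratio among cells without Neurog3. Of 8979 measured genes, 594 were called higher (6.62%) and 584 lower (6.5%) in Isl1CKO. Among cells without Neurog3 the shares were 6.88% and 5.35%. Unscaled CPM, a shift of 0.56, gave 2087 higher and 220 lower among Neurog3 cells. All 6 hormone genes called were lower in Isl1CKO, with log2 ratios of -13.53 for Sst, -12.07 for Gcg and -10.80 for Ppy. Cells without Neurog3 had -9.15, -7.81 and -10.08 for these genes. In all, 5 of 6 measured delta cell genes were called lower, among them Hhex at -3.22 (-2.03 without Neurog3), Rbp4 at -4.70 (-3.32) and Ptprz1 at -4.71 (-1.86). Sox9 was at 1 UMI against 88 UMIs (-4.50), with -4.56 in cells without Neurog3. Higher in Isl1CKO Neurog3 cells were Nkx6-1 (1.49, against 0.69 without Neurog3), Fev (1.64, against 1.58), Nkx2-2, a homeobox factor of endocrine cells (1.16, against 0.55), and Fgl2 (1.52, against 0.18). Gut hormone and neuropeptide genes were called higher for 6 of 7 measured, with Cartpt, the precursor of a neuropeptide, at 4.47 against 5.16 without Neurog3. Pdx1 was lower (-1.52, against -1.53), and Ffar2 was at 0.17 (-0.82 without Neurog3). Whether these ratios differ between Neurog3 cells and the others was not tested.

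No Neurog3 cell of either library was among the kept cells of other types. The 13 acinar genes summed to 200.5 CPM in control Neurog3 cells and 374 CPM in those of Isl1CKO, against 219 and 1936 CPM without Neurog3. All 12 measured acinar genes were called lower in Isl1CKO Neurog3 cells with a median of -2.25, but within male cells 0 of 9 were lower and the median was 0.66. The median Isl1CKO cell had 69.4 CPM of acinar genes with Neurog3 and 72.9 CPM without. The highest single cell gave them 0.563% of its UMIs with Neurog3 and 73.8% without, so a few cells weigh on the sum without Neurog3. Leukocyte genes summed to 225 CPM in control Neurog3 cells against 152 CPM without Neurog3, and to 108 against 159 CPM in Isl1CKO. Of these 10 genes 7 were at 0 in control and 8 in Isl1CKO Neurog3 cells, including Ptprc, Cd74 and Adgre1. Schwann cell genes summed to 15.5 against 12.9 CPM in control and 10.8 against 7.56 CPM in Isl1CKO, and endothelial genes to 10.6 against 13.6 CPM and 28.4 against 20.4 CPM. Stellate and fibroblast genes summed to 6.33 against 33.7 CPM and 0.834 against 11.5 CPM, with 5 and 8 of 9 genes at 0. The sums of Neurog3 cells hold far fewer UMIs, so a gene at 0 is likelier there. With the kept cells of other types left out, the gene ratios followed across settings were classed as unchanged, 38 in control and 39 in Isl1CKO. None was reversed or weaker. The part of RNA from other cell types within the Neurog3 cells was not tested. Mki67 or Top2a, genes of dividing cells, were detected in 2.69% (1.17 to 5.22) of control Neurog3 cells against 2.01% without Neurog3, and in 1.64% (0.199 to 5.80) against 2.61% in Isl1CKO.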

How the data were processed

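The authors deposited 2 unfiltered matrices of UMI counts (whole numbers, not normalized), each with 46984 features and 6794880 barcodes. The genome GRCm38.p6, Seurat 4.3.0.1, and STARsolo with STAR 2.7.3a are named without roles, per the submitters' processing notes. Depth ranged from 48685758 to 86086781 UMIs per library. Gene positions came from GENCODE vM21 by unversioned ID (46488 matched). Cells were filtered and chosen as the report describes, and other cell types were cells with at least 1% of UMIs in 1 of 5 marker lists. Female cells had Xist UMIs and none of Ddx3y, Eif2s3y, Kdm5d and Uty, and male cells the reverse. Doublets were marked with Scrublet through scanpy 1.11.5 at an expected rate of 0.05. It marked 249 control cells at a threshold of 0.185 but 0 Isl1CKO cells, where it did not work, so the control threshold was used there (360 cells). Doublets were kept in the main values.

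UMIs were summed per group and scaled with TMM (edgeR 4.0.16 in R 4.3.3). Log2 ratios had 1 added to each summed count. Since the smaller sum gains more from it, this raises the ratios of low genes in Neurog3 cells over the others, so that higher ratios are overstated and lower ones understated. Intervals are at 95%, Clopper-Pearson for shares and exact conditional Poisson for ratios (scipy 1.17.1). They cover counting error only. Cells of 1 library are not replicates, so no p-value was computed. The ratio and call step was tested on simulated Poisson counts with known fold changes. TMM scaling, the choice of cells and variation between cells were not part of that test. Where a share of 0 is said to allow a value, that value is the upper limit of its interval.

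Genes named are those of 23 lists with large or contrasting values, and the 12 highest and 12 lowest ratios per library among called genes with at least 20 UMIs and in 10% of cells of the higher group, with 1 direction under each scaling, with the depth-matched reference and within male cells, leaving out sex-linked and predicted genes and Neurog3. A few that met these rules are not reported here. The members, lists and rules were chosen with earlier results of these data known. Alternatives were other scalings, expression and fold limits, Neurog3 and hormone limits, thinning, doublets, other cell types and sex. The restriction to Sst cells, an added count in proportion to the totals, the limit of 1 Neurog3 UMI and the genotype ratio without Neurog3 were added after seeing the data.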

Additional observations from a re-analysis of the deposited data

Results flagged for a closer look

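Bmp3 and Sst had ratios of opposite direction in the libraries. Neurog3 cells over cells without Neurog3, the log2 ratio of Bmp3, a bone morphogenetic protein, was 1.82 in control and -1.19 in Isl1CKO, where it rested on 6 UMIs in Neurog3 cells (4.62 against 12.3 CPM). It was 0.016 among control Sst cells, and in Isl1CKO it was not called with unscaled CPM (-0.96), with totals taken without hormone genes (-0.94) or in female cells (-1.15). That of Sst was 1.69 in control and -2.62 in Isl1CKO, from 11 UMIs in 3 cells, and it was -0.14 among control Sst cells. Most Sst UMIs of the Isl1CKO cells without Neurog3 came from 6 Sst cells, with 3357 UMIs. Another 5 Isl1CKO Sst cells, with 2312 UMIs, had exactly 1 Neurog3 UMI and so entered neither group. With cells of exactly 1 Neurog3 UMI in place of the Neurog3 cells, the Isl1CKO ratio of Sst had the direction seen in control. The difference between the libraries was not tested for either gene, since each genotype had 1 library.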

How the results depend on the processing

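The share of Neurog3 cells moved with the UMI limit and depth: 18.7% of control and 6.46% of Isl1CKO cells at 1 UMI or more, 2.49% and 0.437% at 3 or more, 1.58% and 0.332% thinned to 3000 UMIs, and 3.12% and 0.805% thinned to 5000. It was higher in control in each. Counts of called genes moved with the limits. At 3-fold they were 30 higher and 48 lower in control and 23 and 71 in Isl1CKO. At 50 CPM or more they were 39 and 49, and 19 and 62. With no minimum CPM they were 500 and 477, and 408 and 302. Unscaled CPM gave 307 and 84, and 364 and 109, and 2087 and 220 between genotypes. Without hormone genes in the totals, 269 were higher in control, and 388 higher and 107 lower in Isl1CKO. An added count in proportion to the totals, chosen after seeing the data, gave 131 and 156 in control, 130 and 223 in Isl1CKO and 565 and 611 between genotypes. Female cells gave 299 and 296 in control. In Isl1CKO, cells with 3 or more Neurog3 UMIs gave 317 and 320, those with exactly 1 gave 30 and 71, and those with 1 or more 38 and 78.

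Among control Sst cells 9 genes were higher and 11 lower, and the medians turned to -0.089 for delta and 0.052 for alpha cell genes. Single ratios that turned there were Hhex -0.051, Fermt1 -0.016, Sst -0.14, Rbp4 -0.24, Spock3 -0.13, Iapp -0.00087, Chgb -0.0073, Ins1 0.17, Irx1 0.17 and Ttr 0.052. In Isl1CKO, Pgf turned to -0.41 in female cells. Sst turned to 3.42 and Ppy to 1.85 in cells with exactly 1 Neurog3 UMI, and to 3.02 and 1.497 in cells with at least 1. The Isl1CKO alpha median was -2.42 at 3 or more Neurog3 UMIs and -2.28 in male cells, where the delta median was -0.88. The control Gcg share was 8.71% without marked doublets. With a hormone limit of 5% of UMIs, control Sst was 74.2% and Ppy 33.6%, and Isl1CKO insulin 3.28%. In female cells insulin was at 0 in control and 2.44% in Isl1CKO. The cause of these changes was not tested, other than that fewer genes or cells enter some of them. No paired analysis was possible because each genotype had 1 library. The number of Isl1CKO Neurog3 cells limits the precision of low genes.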
